A study of Mus musculus with 10 samples.

Results

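Prostaglandin synthesis and signalling genes were examined in 5 mouse mammary tumour cell lines. The 8 genes were Pla2g4a, Ptgs1, Ptgs2, Ptges, Ptgis, Hpgd, Ptger2 and Ptger4, and they were chosen by their line means on these same arrays. A probe set, the group of array probes that reports on 1 transcript, was taken for a gene when the array annotation gave it that gene's symbol and no other. Of the 8 genes, 7 had such a probe set, with 12 probe sets of the 45101 on the array. Ptgs1, the constitutive cyclooxygenase, was not analysed here. Because the line means chose these genes, their levels and changes are given as a description and carry no test.

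The measurements were probe set signals (intensity, linear scale) on 10 arrays, 2 for each line. Line E was epithelial, grown out of an adenocarcinoma that arose spontaneously in the mammary gland of a female FVB/N-TgN(MMTVneu)202Mul mouse, in which a mouse mammary tumour virus promoter drives the neu oncogene in mammary epithelium. Lines M1, M2, M3 and M4 were mesenchymal, and each came from a tumour that relapsed in a female FVB/N mouse injected with E cells. Whether the cells of the M lines descend from E was not tested here. All were grown in the same serum-containing medium to near confluence with no added agent named, and each is a single line, so E stands for 1 epithelial line only.

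Prostaglandins are made from arachidonic acid, which cytosolic phospholipase A2 (Pla2g4a) cuts from membrane phospholipids and a cyclooxygenase (Ptgs1 or the inducible Ptgs2) turns into prostaglandin H. Terminal synthases then make prostaglandin E (Ptges) or prostacyclin (Ptgis), the dehydrogenase Hpgd inactivates them, and the receptors Ptger2 and Ptger4 answer prostaglandin E by raising cyclic AMP. In mammary tumours Ptgs2 is known as an inducible enzyme linked to growth, inflammation and the stroma.

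The start regions of the 3 genes with the highest M signals relative to E are shown because these are the members whose M signals all lay above E. All are from RefSeq on build GRCm38.p6 and are read 5′ to 3′ along the gene's own strand, with positions counted from the transcript start. Ptgs2 (chr1:150100031-150108234, plus strand) is shown by the 250 bases before its start (chr1:150099781-150100030) and by a 30-base stretch just after it (chr1:150100032-150100061). Ptges (within chr2:30889471-30931020, minus strand) is shown at chr2:30903298-30903547, and Pla2g4a (chr1:149829618-149961290, minus strand) at chr1:149961291-149961540. Capitals mark matches to the searched patterns on either strand.
Ptgs2 upstream: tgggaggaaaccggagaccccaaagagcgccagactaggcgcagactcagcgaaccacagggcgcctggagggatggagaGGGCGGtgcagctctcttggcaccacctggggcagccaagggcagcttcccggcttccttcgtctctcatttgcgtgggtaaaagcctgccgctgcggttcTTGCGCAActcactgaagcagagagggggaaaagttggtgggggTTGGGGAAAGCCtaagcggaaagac
Ptgs2 after the start: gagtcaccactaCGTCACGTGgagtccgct
Ptges upstream: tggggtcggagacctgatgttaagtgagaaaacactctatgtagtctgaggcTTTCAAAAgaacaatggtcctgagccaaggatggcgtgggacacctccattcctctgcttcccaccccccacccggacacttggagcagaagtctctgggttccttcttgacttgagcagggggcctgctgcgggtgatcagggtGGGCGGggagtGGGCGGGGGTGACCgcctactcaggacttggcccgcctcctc
Pla2g4a upstream: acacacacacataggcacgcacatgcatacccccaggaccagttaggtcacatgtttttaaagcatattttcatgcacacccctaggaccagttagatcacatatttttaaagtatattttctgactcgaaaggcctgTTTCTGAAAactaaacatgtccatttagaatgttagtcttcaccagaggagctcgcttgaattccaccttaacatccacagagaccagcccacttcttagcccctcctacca

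In the Ptgs2 window the capitals are a GC box (GGGCGG) at -170, a C/EBP pattern (TTNNGNAA) at -69, and a second C/EBP pattern at -25 that overlaps an NF-kB pattern (GGG, any 5 bases, CC) at -23. After the RefSeq start, the cyclic AMP response element core (CGTCA) at 14 overlaps an E-box (CACGTG) at 17. Whether transcription begins at the RefSeq start was not checked, so all positions hold for that start only. In Ptges the matches were a C/EBP pattern at -198, GC boxes at -53 and -42, and an NF-kB pattern at -38 that overlaps the latter GC box. Pla2g4a held only a pair of overlapping C/EBP matches at -112 and -111, and none of the 3 upstream windows shown held the TATA pattern TATAAA or the AP-1 pattern TGANTCA. RefSeq lists another start for Pla2g4a, not shown, whose window held the TATA pattern at -200 on the opposite strand. Among 32851 mouse promoter windows of 300 bases, 35.7% held the GC box, 40.7% the C/EBP pattern, 50.8% the NF-kB pattern, 20.8% the CGTCA core, 7.15% the E-box, 13.6% TATAAA and 7.81% TGANTCA. Counting only the 250 bases before the start, the shares were 32.7% for the GC box, 36.8% for C/EBP and 45.8% for NF-kB. There they were 12.4% for TATAAA and 6.75% for TGANTCA. A match describes letters in a window and is not evidence of binding.

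Pla2g4a, the enzyme that frees arachidonic acid, was high in all M lines. Its probe set (1448558_a_at) read 460.8 and 379.7 in E, 2235.3 and 2170.2 in M1, 2720.1 and 1986.8 in M2, 2285.9 and 2313.2 in M3, and 2085.7 and 2047.5 in M4. All 8 M arrays lay above both E arrays, and the signals of M2 spanned those of M1, M3 and M4. The line means were 420 ± 57.3 in E (SD, n = 2 here and below), and for the M lines in order 2203 ± 46.0, 2353 ± 519, 2300 ± 19.3 and 2067 ± 27.0. On the linear scale each M line was thus 4.92 to 5.60 times E. On the log2(signal + 32) scale used for all changes below, the mean of the M lines exceeded E by 2.32 ± 0.11 (SE of the fit), and single lines by 2.22 to 2.39.

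Ptgs2, the inducible cyclooxygenase, went from the bottom of the E arrays to near the top of the M arrays. Its brighter probe set (1417262_at) read 2.8 and 0.4 in E, 5669.1 and 5688 in M1, 7084 and 6356.1 in M2, 6178.8 and 6082.1 in M3, and 5030.2 and 5446.9 in M4. Both E signals were at or under the 9.95 percentile of their array, whereas the M signals were between the 98.6 and 99.1 percentiles. The line means were 1.60 ± 1.70 in E, and for M1 to M4 in order 5679 ± 13.4, 6720 ± 515, 6130 ± 68.4 and 5239 ± 295. The order M2, M3, M1, M4, E held without overlap of neighbouring lines on this probe set. On the other probe set (1417263_at) M3 and M2 overlapped, as did M4 and M1, so the order among the M lines depends on the probe set read.

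The other Ptgs2 probe set read 4.2 and 16 in E, 1886.8 and 1895.8 in M1, 2851.9 and 2374.4 in M2, 2895.3 and 2745.3 in M3, and 1861.7 and 2059.8 in M4. The gap between E and every M array was therefore present on both. The log2 change of the brighter probe set was 7.47 ± 0.10 for the mean of the M lines (M1 at 7.41, M2 at 7.65, M3 at 7.52, M4 at 7.29, SE 0.12 each), and the other probe set gave 5.80 for the mean. Since E was near 0, the size of this value is set by the pseudocount of 32: it was 9.28 with a pseudocount of 8 and 5.54 with one 4 times larger than 32.

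**Figure D1:**
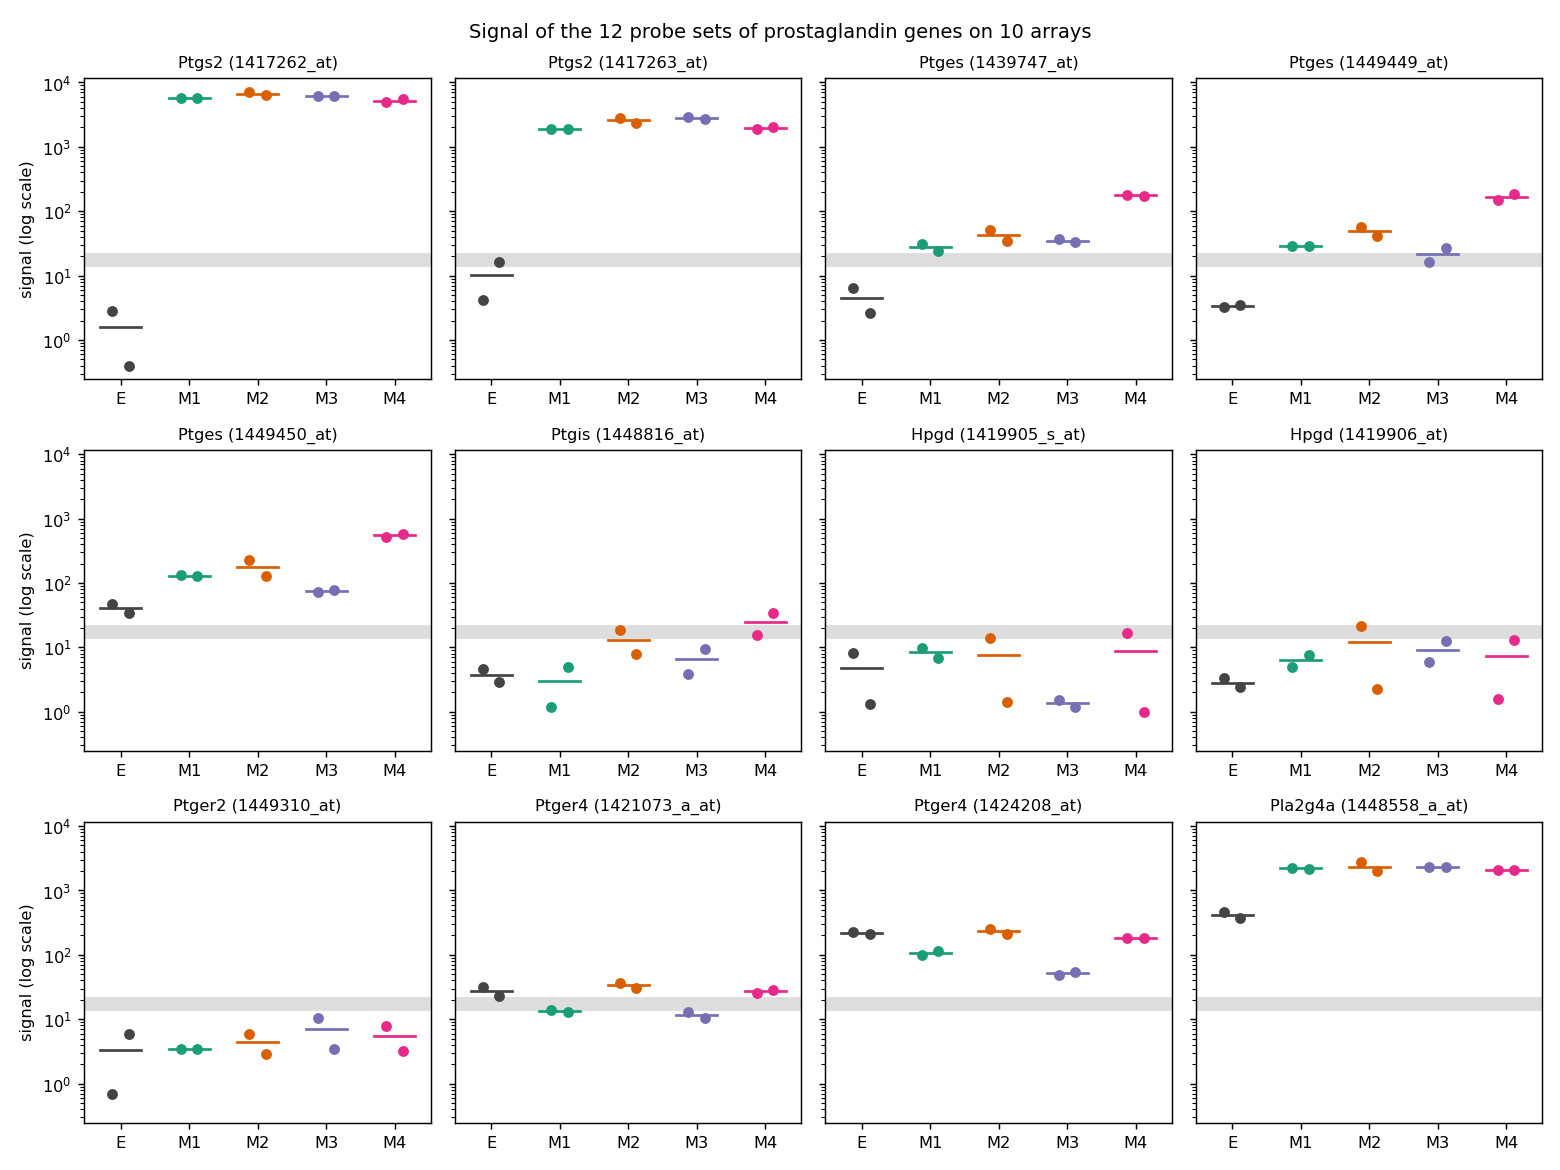
Signal of each of the 12 probe sets on the 10 arrays (log axis), 1 panel a probe set; points are arrays, bars are line means, and the grey band spans the 40th percentile of the arrays (14.1 to 21.3). Ptgs2, Ptges and Pla2g4a have all M arrays above both E arrays, whereas all Ptger2 signals lie below the band and Hpgd signals lie mostly below it.

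Ptges, the inducible prostaglandin E synthase, was the member that set the M lines furthest apart. The probe set with the highest signal (1449450_at) read 47.4 and 34.5 in E, 131.2 and 126.5 in M1, 228.8 on 1 array of M2, whose mean was 178 ± 71.3, 72.7 and 77.5 in M3, and 521.6 and 584 in M4. M4 was highest and M3 lowest of the M lines, the arrays of M1 and M2 overlapped, and every M array was above both E arrays. The line means were 41.0 ± 9.12 in E, 129 ± 3.32 in M1, 75.1 ± 3.39 in M3 and 553 ± 44.1 in M4.

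The log2 change of Ptges was 1.55 ± 0.15 for the mean of the M lines, with M1 at 1.15, M2 at 1.49, M3 at 0.56 and M4 at 3.01 (SE 0.18 each). Leaving M4 out of the mean brought it to 1.07. A further Ptges probe set (1439747_at) read 6.4 and 2.6 in E and between 24.2 and 50.5 in M1 to M3, against 176.6 and 175.4 in M4. The last (1449449_at) read 3.2 and 3.5 in E and between 16.2 and 56.1 in M1 to M3, against 147.7 and 182.9 in M4. All 3 probe sets thus placed M4 highest and E lowest, while M1 and M3 changed places between them.

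Ptgis, the prostacyclin synthase, was at or near the background everywhere. It read 4.6 and 2.9 in E, 1.2 and 4.9 in M1, 18.6 and 7.9 in M2, 3.9 and 9.3 in M3, and 15.8 and 34.2 in M4. Every line overlapped its neighbour in the order of means, and M4 was the highest at 25.0 ± 13.0. The change was 0.27 ± 0.17 for the mean of the M lines and 0.65 in M4 (SE 0.22). Endothelial markers, whose cells are known for prostacyclin, were also low: the 4 markers (Pecam1, Cdh5, Tek and Kdr) summed to 17.5 and 54.1 on the E arrays and to 36.1 to 121.9 on the M arrays, and none was called in the mean contrast, although Cdh5 was called higher in M2 (1.09).

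Hpgd, which inactivates prostaglandins, gave no signal that could be ordered. Its probe set 1419905_s_at read 8.3 and 1.3 in E and from 1.0 to 16.8 over the M arrays, and 1419906_at 3.3 and 2.4 in E and from 1.6 to 21.8 over the M arrays. The arrays of 1 line differed as much as the lines did, for example 16.8 and 1.0 in M4. Neither probe set passed the filter on low values, which asked that 2 or more arrays exceed their own 40th percentile, so no change of Hpgd was fitted.

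Of the prostaglandin E receptors, Ptger4 passed the filter on low values and Ptger2 did not. Ptger2 (1449310_at) read 0.7 and 5.9 in E and from 2.9 to 10.6 over the M arrays, at most at the 33.6 percentile of an array. The brighter Ptger4 probe set (1424208_at) read 226.9 and 210.5 in E, 100 and 116.3 in M1, 254.4 and 209.9 in M2, 48.2 and 55 in M3, and 181.3 and 183.2 in M4. M2 overlapped E, M4 and M1 lay below E, and M3 was lowest. The line means were 219 ± 11.6 in E, and for M1 to M4 in order 108 ± 11.5, 232 ± 31.5, 51.6 ± 4.81 and 182 ± 1.34, so M3 stood at 0.236 times E.

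The log2 change of Ptger4 was -0.65 ± 0.13 for the mean of the M lines, with M1 at -0.84, M2 at 0.07, M3 at -1.58 and M4 at -0.23 (SE 0.17 each). The mean was -0.33 without M3 and -0.88 without M2. Overall brightness differed between arrays: the median change of all genes was -0.21 as deposited and near 0 after quantile normalization. With that normalization the mean for Ptger4 was -0.24, M3 was -1.12 and the sign of M4 turned to 0.39. The dimmer Ptger4 probe set (1421073_a_at) read 31.2 and 22.8 in E, 12.9 and 10.3 in M3, and 14.0 and 12.9 in M1, with both M4 and M2 overlapping E. Both probe sets thus had M1 and M3 below E.

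**Figure D2:**
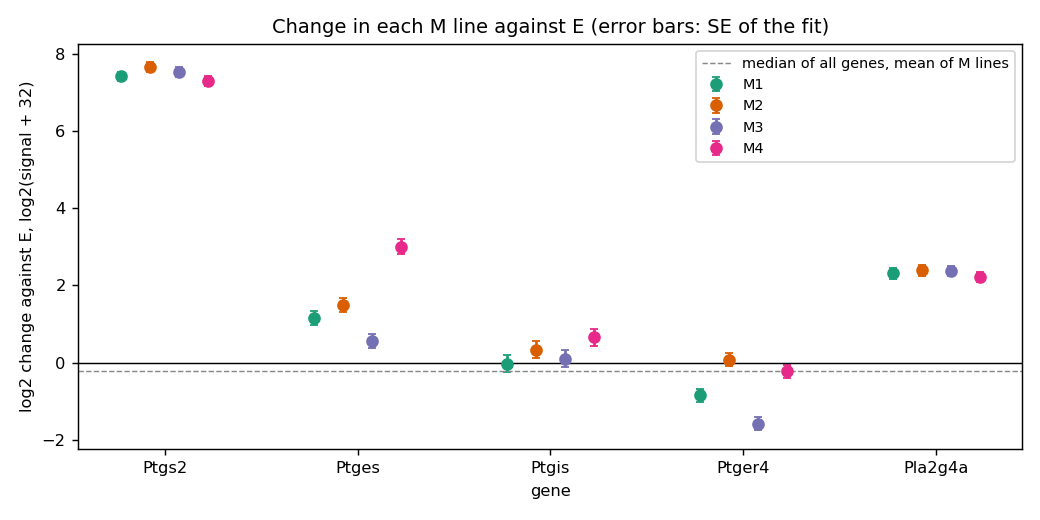
Log2 change of each M line against E on the log2(signal + 32) scale for the 5 genes that passed the filter; points are estimates of the fit, bars are its SE, and the dashed line is the median change of all genes (-0.21). The 4 lines lie close together for Ptgs2 and Pla2g4a and spread for Ptges (0.56 in M3 to 3.01 in M4) and Ptger4 (-1.58 in M3 to 0.07 in M2).

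A gene was called when limma's Benjamini-Hochberg adjusted p over 14840 genes was under 0.05 and the change was at least 2-fold. Every gene past the fold minimum in the mean contrast also passed the p limit (3237 of 3237), so the fold minimum decided the count. In the mean contrast 3 of the 5 members that passed the filter were called higher (Ptgs2, Ptges and Pla2g4a) and 0 lower, where 7.34% of all genes tested were called higher and 14.5% lower. For the same 3 members all 8 M arrays lay above both E arrays, which held for 10.8% of all genes tested. Nothing is read from these counts, since the line means chose the members.

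Counted line by line, Ptgs2, Ptges and Pla2g4a were called higher in M1, where 21.1% of all genes were called, 8.6% higher and 12.5% lower. The same 3 members were called higher in M2 (20.4% of all genes, 8.58% higher and 11.8% lower) and in M4 (26.8% of all genes, 6.65% higher and 20.1% lower). In M3 Ptgs2 and Pla2g4a were called higher and Ptger4 lower, where 27.5% of all genes were called, 7.7% higher and 19.8% lower. These counts describe the members by line, and nothing is read from them either, nor from the difference between lines.

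Ptgs2 and Pla2g4a are also neighbours on chromosome 1. Their annotated ends lie 139 kb apart on GRCm38.p6, and the 2 genes annotated between them, the pseudogene Gm19136 and the long non-coding RNA Ptgs2os, are not protein-coding. Within 1 Mb on either side, 2 other genes were tested, Pdc (-0.26 ± 0.18) and Odr4 (0.29 ± 0.13), and 0 of them were called. Ptges (chromosome 2), Ptger2 (chromosome 14) and Ptger4 (chromosome 15) lie elsewhere, Ptgis is on chromosome 2 at chr2:167203194-167252150, and Hpgd is on chromosome 8.

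The genes whose changes in M1 to M4 lay closest to each member were found by the Euclidean distance over those 4 log2 changes. For Ptgs2 they were Lgals1 (galectin-1, distance 0.42), Igfbp4 (a binding protein of insulin-like growth factors, 0.82), Dcn (the proteoglycan decorin, 0.87), Lox (a collagen cross-linking enzyme, 1.05) and Htra1 (a secreted protease, 1.22). For Pla2g4a they were the epithelial-mesenchymal transition factor Zeb2 (0.17) and Agtrap (0.17). For Ptges they were Cemip, which takes part in hyaluronan breakdown (0.42), and Masp1, a complement protease (0.62). For Ptger4 they were Btd (0.35) and Dsn1 (0.35). None is given for Ptgis, whose signals were near background. These distances rest on 4 changes that share the E arrays and describe likeness only.

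Outside the members, 75 further genes of the pathway were listed by role, of which 62 were tested. Of these, 13 rose and 11 fell in the mean of the M lines, or 38.7%, where 21.8% of all genes tested were called. Their median change was -0.11, against -0.21 over all genes tested. In a fit to the 5 line means, in which the spread comes from lines instead of arrays, 12 of the 62 were called. That fit called 1572 of all 14840 genes tested. The moderated F across the 4 M lines called 28 of the 62, where it called 22.4% of all genes tested. Where E or the M lines were near background, the size of a change depends on the pseudocount, as for Ptgs2. All adjusted p-values below are limma's over all genes tested. They set a difference against the spread between the 2 arrays of each line. Those given over the 5 line means set it against the spread between the M lines instead.

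Among 13 tested genes of arachidonate release and reacylation, 3 rose and 2 fell. The secreted phospholipase Pla2g2e rose by 2.18 ± 0.14 (adjusted p = 3.93e-19), from 1.8 and 3.6 in E to between 16.0 in M1 and 481.0 in M3, although in M1 alone the change was 0.65 and not called. With E near background, this value was 1.07 to 3.51 across the settings tried. Pla2g12a rose by 1.65 ± 0.13 (adjusted p = 6.44e-16), and Pla2g5, named after its values were seen, rose by 1.41 ± 0.15 (adjusted p = 2.03e-11). Pla2g12a was not called in M4 (0.70), nor was Pla2g5 in M1 (0.63). Mgll, which frees arachidonate from endocannabinoids, fell by 3.38 ± 0.15 (adjusted p = 1.77e-25), from 561.7 and 507.4 in E to between 5.2 and 71.2. Acsl4, which couples arachidonate to coenzyme A, fell by 1.71 ± 0.11 (adjusted p = 2.77e-19). Pla2g2e and Pla2g12a were not called over the 5 line means (adjusted p = 0.274 and 0.251), nor was Pla2g5 (0.195), whose change was also under the fold minimum (0.55) with a pseudocount 4 times larger.

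No other terminal synthase rose in the mean contrast: of 6 tested, 0 rose and 2 fell. Ptgds, the lipocalin-type prostaglandin D synthase, fell by 2.57 ± 0.15 (adjusted p = 5.24e-21), from 433.4 and 351.3 in E to 10.0 to 84.3 over the M arrays. Ptges2, the second membrane-bound prostaglandin E synthase, fell by 1.60 ± 0.13 (adjusted p = 8.96e-16), from 1149.1 and 1105.3 to between 284.5 and 485.5. All 8 M arrays lay below both E arrays for these genes, which held for 30.9% of all genes tested. Hpgds and Tbxas1, the prostaglandin D and thromboxane synthases of blood cells, stayed at 41.5 or less on every array.

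The other prostanoid receptors were dim, and of the 4 tested 0 were called in the mean contrast. Ptger1, Ptger3 and Ptgdr2 did not pass the filter and read 15.4 or less on every array. Ptgfr, the prostaglandin F receptor, read 2.0 and 11.9 in E and reached 111.9 and 116.8 in M4, where it rose by 1.92 (adjusted p = 8.34e-12), while its mean change was 0.78 ± 0.16. Ptgir, the prostacyclin receptor, rose by 1.11 in M4 (adjusted p = 8.9e-06), with a mean change of 0.53 ± 0.16. Ptgdr and Tbxa2r had mean changes of -0.20 ± 0.16 and -0.20 ± 0.20. With a pseudocount of 8, Ptgfr (1.43) and Ptgir (1.02) were called in the mean contrast too, and Ptgfr also when M3 was left out (1.02). Of the nuclear receptors listed, Ppard rose by 1.14 ± 0.14 (adjusted p = 6.98e-10), or by 0.996 without M1, just under the fold minimum, and by 0.72 with the larger pseudocount, and Ppara did not pass (-0.14). Ppard was not called in M3 (0.61).

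Among 5 tested genes of prostanoid transport and breakdown, 2 rose and 0 fell. Abcc4, the transporter that exports prostaglandin E, read 4.0 and 2.0 in E, 522.1 and 526.8 in M1, 1505.9 and 979.7 in M2, 1857.7 and 1852.3 in M3, and 628.2 and 710.4 in M4. It was near 0 in E and high on every M array, with M3 highest, and it rose by 4.81 ± 0.13 (adjusted p = 1.31e-33), or by 3.05 to 6.44 across the settings tried. This was also called over the 5 line means (adjusted p = 0.00478). Ptgr1, a reductase of prostaglandin breakdown products, rose by 1.89 ± 0.12 (adjusted p = 1.51e-18), from 209.2 and 179.9 in E to between 369.8 and 1514.3. In M3 alone the change of Ptgr1 was 0.85 and not called. Slco2a1, the prostaglandin uptake carrier, read 949.6 and 1086.9 in E and from 1105.0 to 2229.5 over the M arrays, a mean change of 0.61 ± 0.11 that is under the fold minimum. In M1 alone Slco2a1 was called higher (1.07). Its other kept probe sets had mean changes of -0.21, 0.23 and 0.39, none called, so the sign depends on the probe set read.

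In the leukotriene branch, which shares arachidonate with the cyclooxygenases, 1 of 5 tested genes rose and 1 fell. Alox5ap, the helper protein of the lipoxygenase Alox5, rose by 3.06 ± 0.14 (adjusted p = 3.40e-25), from 6.9 and 21.4 in E to 90.2 and 90.1 in M1 and as much as 960.9 in M2. Ltc4s, the leukotriene C synthase, fell by 3.52 ± 0.15 (adjusted p = 1.86e-26), from 624.2 and 567.6 to 150.4 and 112.4 in M1 and to 15.9 or less in the other M lines. Alox5 itself read 44.9 or less on all arrays, with a change of -0.15 ± 0.17.

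Of 17 tested regulators of Ptgs2 expression, 2 rose and 5 fell. The interleukin Il1a rose by 1.97 ± 0.14 (adjusted p = 4.64e-17), from 1.5 and 5.7 in E to between 39.8 and 223.7, and its receptor Il1r1 rose by 1.90 ± 0.16 (adjusted p = 5.76e-15). In M3 alone Il1r1 was not called (0.95). The receptor antagonist Il1rn fell by 3.78 ± 0.14 (adjusted p = 1.02e-28), from 905.7 and 872.9 in E to between 8.2 and 164.5. The immediate early factors Fos and Egr1 fell, with changes of -4.20 ± 0.13 (adjusted p = 2.33e-32) and -3.63 ± 0.12 (adjusted p = 2.83e-30). The RNA-binding proteins Celf2 and Zfp36, both known to bind Ptgs2 mRNA and hold back its product, fell by 2.76 ± 0.13 (adjusted p = 1.29e-24) and by 2.02 ± 0.13 (adjusted p = 9.36e-19). Il1r1 and Il1a were lost over the 5 line means (adjusted p = 0.165 and 0.0958), as was Celf2 (0.29). With the larger pseudocount Il1a (0.87) and Il1r1 (0.89) were under the fold minimum, and Il1a, Il1r1 and Zfp36 were named after their values were seen.

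Transcription factors for some of the patterns searched in the start regions had differing values. These were the AP-1, NF-kB, C/EBP and cyclic AMP response element patterns. Factors for the GC box, E-box and TATA patterns were not examined. Of the AP-1 factors, Fos fell as given above, and Jun, with a mean change of 0.19, was called higher in M1 (1.20) and lower in M3 (-1.29). Rela, a subunit of NF-kB, changed by -0.10, Cebpb by -0.38, Cebpd by 0.51 and Creb1 by -0.74, none of these 4 past the fold minimum. Cebpb was bright in every line, at 6794.5 and 7426.0 in E and at 5150.3 to 6793.0 over the M arrays. The mRNA-stabilising protein Elavl1 changed by -0.52 and the cytokine Il1b by -0.13, with Il1b at 45.1 or less on all arrays.

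Among 10 tested targets of cyclic AMP signalling, to which Ptger2 and Ptger4 couple, 4 rose and 1 fell. Of the orphan nuclear receptors, Nr4a2 rose by 2.57 ± 0.13 (adjusted p = 1.52e-22) and Nr4a1 fell by 3.37 ± 0.12 (adjusted p = 1.40e-28). Nr4a3 was called higher in M4 only (1.13), with a mean change of 0.33. For Nr4a2, 3 of its 5 kept probe sets were called and 2 were not. The phosphatase Dusp1 rose by 1.70 ± 0.11 (adjusted p = 2.79e-19), the cyclic AMP phosphodiesterase Pde4d by 1.41 ± 0.14 (adjusted p = 1.42e-12) and the angiogenic factor Vegfa, named after its values were seen, by 1.28 ± 0.13 (adjusted p = 6.07e-12). In M3 Dusp1 (0.69) and Pde4d (0.92) were not called, nor was Vegfa in M4 (0.94). Over the 5 line means Dusp1 (adjusted p = 0.148), Pde4d (0.199) and Vegfa (0.0804) were not called, nor was Pde4d with the larger pseudocount (0.65).

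**Figure D3:**
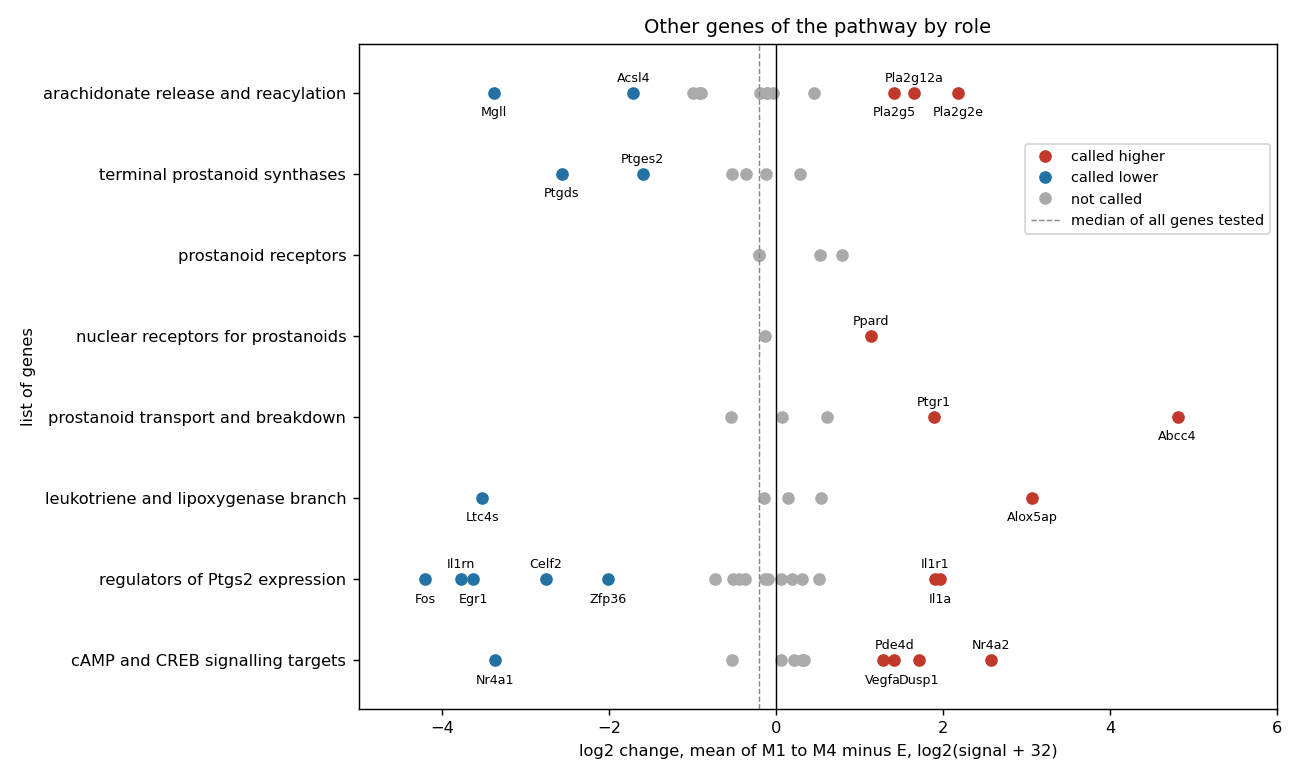
Log2 change of the mean of M1 to M4 against E for the tested pathway genes outside the members, by list; red points were called higher, blue points lower, grey points were not called, and the dashed line is the median of all genes (-0.21). At these settings Abcc4 (4.81) lies furthest to the right and Fos (-4.20) furthest to the left, and the prostanoid receptors hold no called gene.

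Markers of the labelled cell types moved with these genes. In the mean contrast all 7 epithelial markers were called lower, 6 of them in each M line (Epcam at -8.21, Cdh1 at -5.86), while the keratin Krt8 was called lower in M1 only (-6.49) and changed by -0.01 in M2, -0.52 in M3 and -0.80 in M4. Of 6 mesenchymal markers 5 rose, with Vim not called. Of 6 fibroblast markers 5 rose, and their summed signal was 58.7 and 108 on the E arrays but 6585 to 14656 on the M arrays, while Thy1 stayed under 50 on all arrays. The call of 1 of these 5, Lum, came from M4 (mean signal 1311, against 16.45 in E and 9.05 to 14.8 in the other M lines). Of 8 leukocyte and macrophage markers, 7 were tested and 0 were called in the mean contrast, although Lyz2 was called higher in M3 (1.19), with summed signals of 215 and 227 on the E arrays and 289 to 445 on the M arrays, and Ptprc, Adgre1, Itgam, Cd3e and Cd79a were under 50 on all arrays. Of 4 mast cell markers Kit fell, while Cpa3, Mcpt4 and Fcer1a were under 50 on all arrays. Of 4 smooth muscle markers Acta2 rose (2.06), with a mean signal of 140 in E and 3710 in M1. The change of Acta2 was 4.47 in M1, 1.14 in M2 and 2.24 in M4, and it was not called in M3 (0.37). The part of these cell states in the prostaglandin signals was not tested, and in bulk RNA fewer cells of a type and less RNA per cell cannot be told apart.

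**Figure D4:**
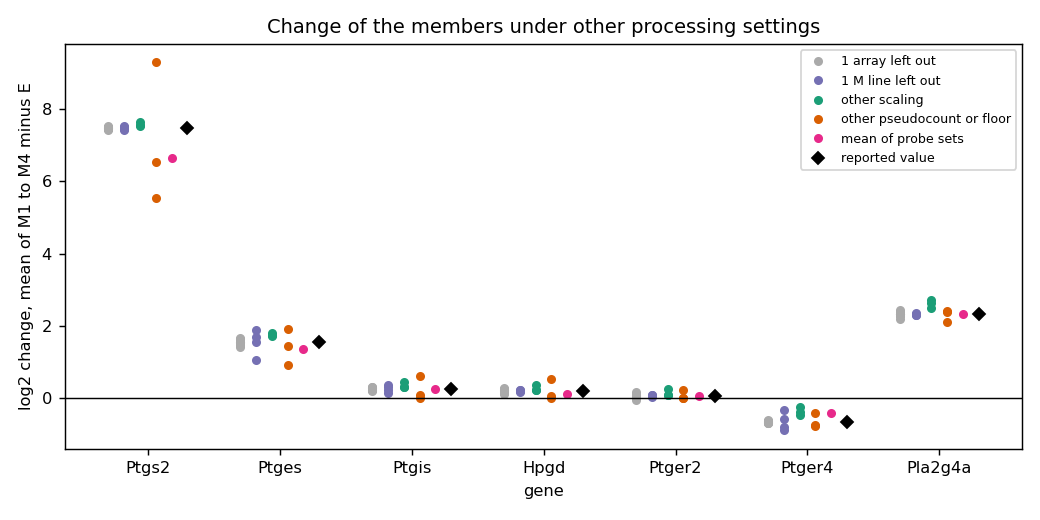
Log2 change of the mean of M1 to M4 against E for each of the 7 members with a probe set, as reported (diamonds) and under other settings (points). Ptgs2 runs from 5.54 to 9.28, Pla2g4a stays between 2.10 and 2.72, and Ptger4 stays below 0 at -0.88 to -0.24.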

How the data were processed

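The deposited values are probe set signals (intensity, linear scale) that the authors made with GCOS 1.3, per the submitters' processing notes. No source used here gives the signal algorithm or the scaling target. The 40th percentile of an array was 14.1 to 21.3 and the trimmed mean 181 to 299, so overall brightness differed. The correlation of log2 values was 0.993 to 0.994 between arrays of a line and 0.802 to 0.968 between lines. Gene names came from the array annotation: 34945 probe sets had a single symbol, 932 several and 9160 none, and 64 were controls.

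A pseudocount of 32 was added before log2. Probe sets were kept (32978) if 2 or more arrays exceeded their own 40th percentile, and the kept probe set with the highest mean signal stood for its gene (14840 genes). limma 3.58.1 in R 4.3.3 fitted 1 mean per line (lmFit, eBayes with trend, 5 residual and 41.4 prior degrees of freedom) after it had been tested on simulated data. E was subtracted from the mean of the M lines and from each of them, and a moderated F compared M1 to M4, called only with a range of at least 2-fold. Genes share the spread of 2 arrays a line. The labels do not say that these came from separate cultures. The p-values of this fit therefore weigh a change only against the spread between arrays, which may be technical. The number of arrays limits precision.

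The members, the lists and the tests were chosen with earlier results of these data known. Named genes are the members, all prostanoid receptors and up to 4 called genes with the largest change per other list. The nearest genes by distance were also named, 5 for Ptgs2 and 2 for each other member. Those of Ptgis, near background, are left out. Cell type markers and neighbouring genes were named by their lists and positions. Other pathway genes lie outside this rule, and some are marked as named after their values were seen. Hpgds, Tbxas1, Ppara, Rela, Cebpb, Cebpd, Creb1, Elavl1 and Il1b carry no such mark, nor do Tnf, Slco3a1, Prxl2b and Nr4a3. The alternative values counted below leave these unmarked genes out. Alternatives were other pseudocounts, a floor, 3 other scalings, no filter, the mean of probe sets, no trend, a replicate block, line means, and each array or M line left out. Same-numbered arrays did not deviate together: over 10 pairs of lines the correlation of their deviations was -0.071 to 0.058.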

Additional observations from a re-analysis of the deposited data

Results flagged for a closer look

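The pathway genes below differed between the 4 M lines by limma's moderated F test over all genes, with a range of line means of at least 2-fold. Tnf (97.5 in M2 and 8.80 in M1), Slco3a1, Prxl2b and Nr4a3 passed the same test but are not described below. The comparisons of this test leave E out, although the E arrays enter the estimate of the spread. No cause was tested. Line means of the signal are given.

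Among genes of arachidonate release, Pla2g2e was 477.9 in M3 and 22.95 in M1 (adjusted p = 1.6e-20), Pla2g12a was 1305 in M3 and 266 in M4 (adjusted p = 1.4e-15), and Pla2g5 was 139.7 in M4 and 19.4 in M1 (adjusted p = 8.14e-10). Mgll was 58.7 in M1 and 9.30 in M4 (adjusted p = 4.01e-06). Plaat3, a phospholipase of the plasma membrane and peroxisome, was 612 in M1 and 136 in M4 (adjusted p = 1.29e-12), with E at 208 between them.

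Among synthases and receptors, Ptgds was 75.95 in M2 and 17.4 in M1 (adjusted p = 1.11e-05). Cbr1, the carbonyl reductase that can turn prostaglandin E into prostaglandin F, was 330.4 in M1 and 7.40 in M2 (adjusted p = 1.17e-20), so it was above E (76.0) in M1, by 1.76 on the log2 scale, and below E in the others; its mean change was -0.53, and -1.29 without M1. Ptgfr was 114 in M4 and 8.80 in M3 (adjusted p = 5.21e-11), and Ptgir was 53.95 in M4 and 6.85 in M1 (adjusted p = 1.09e-06). Thus M4 had the highest mean of Ptges, Ptgfr and Ptgir.

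Among transport, breakdown and leukotriene genes, Abcc4 was 1855 in M3 and 524 in M1 (adjusted p = 1.47e-12), and Ptgr1 was 1456 in M1 and 376 in M3 (adjusted p = 1.82e-13). Ltc4s was 131 in M1 and 4.00 in M3 (adjusted p = 2.76e-15), and Alox5ap was 876 in M2 and 90.2 in M1 (adjusted p = 4.94e-19).

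Among regulators of Ptgs2, Fos was 539 in M4 and 93.2 in M3 (adjusted p = 3.44e-16), Egr1 was 1069 in M4 and 141 in M3 (adjusted p = 3.63e-19), and Jun was 2848 in M1 and 483 in M3 with E at 1231 (adjusted p = 4.48e-19). Il1a was 199 in M2 and 40.9 in M1 (adjusted p = 1.01e-10), Il1r1 was 292 in M4 and 42.2 in M3 (adjusted p = 3.9e-12), and Il1rn was 156 in M4 and 11 in M1 (adjusted p = 2.85e-15). Zfp36 was 261 in M2 and 107 in M3 (adjusted p = 7.22e-07), and Celf2 was 1183 in M1 and 37.8 in M4 (adjusted p = 8.77e-27).

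Among cyclic AMP targets, Nr4a1 was 858 in M4 and 181 in M1 (adjusted p = 2.14e-16), Dusp1 was 2885 in M2 and 911 in M3 (adjusted p = 1.94e-14), and Pde4d was 219.8 in M4 and 53.3 in M3 (adjusted p = 1.12e-10). Plaat3, Cbr1 and Jun, and above Alox5 and Slco2a1, were named after their values were seen.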

How the results depend on the processing

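Of 825 alternative values of 33 pathway gene results, 798 stayed on the same side of the limits, 22 were no longer called, 5 became called and 0 turned a call around. The replicate block and the fit without a trend leave every log2 change as it is. Their values could change side only through the p-value, so the 798 include values that could hardly differ. Among the 798, 7 values of uncalled genes (Cbr1, Tbxa2r, Alox5 and Jun) had the opposite sign and 3 were 0 at the floor. With a pseudocount 4 times larger the genes called numbered 2081 in the mean contrast, 2055 in M1, 1970 in M2, 2461 in M4 and 1830 by the F test, against 3237, 3134, 3022, 3970 and 3317. Over the 5 line means 1572 were called in the mean contrast, and 12 pathway genes, against 24. Leaving out 1 array gave 3081 to 3530 in the mean contrast, 3075 to 3317 in M1, 2953 to 3340 in M2, 3916 to 4412 in M3, 3667 to 4407 in M4, 3186 to 3853 by the F test and 24 to 25 pathway genes. The replicate block left the counts at 3237, 3134, 3022, 4081, 3970, 3317 and 24. It could not alter a log2 change, since every line has an array of each replicate number. These unchanged counts therefore say little about robustness. Quantile normalization gave 1425 higher and 1304 lower, against 1089 and 2148. Ppard lost its call with a pseudocount 4 times larger (0.72), without M1 (1.00) and over the line means (adjusted p = 0.15, limma), where Alox5ap (0.108) and Ptgr1 (0.138) lost theirs too. Pla2g5, Il1a, Il1r1 and Pde4d lost theirs with the larger pseudocount (0.55, 0.87, 0.89 and 0.65) and with a floor of 64 (0.31, 0.83, 0.86 and 0.49). Ptgfr gained a call without M3 (1.02). Signals near background, as for Ptgis, Hpgd, Ptger2 and Ptgs2 in E, have no reliable order or fold.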
